A study of Mus musculus with 18 samples.

Results

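The wild-type transcriptomes of CD115- common dendritic cell progenitors (CDPs) were compared with those of multipotent progenitors (MPPs), the earlier population from which they descend. The comparison held 6 of the 18 libraries of the series, 3 of MPPs and 3 of CD115- CDPs, taken by their labels from a table for each population and joined on the gene identifier over 19710 genes. All 6 came from bone marrow of C57BL/6 mice that were 6 to 8 weeks old and wild type, that is, Trim33 fl/fl with both floxed alleles intact; by the study's text, these mice had received tamoxifen, as had the mice with the inducible Cre. MPPs had been sorted as Lin- Sca-1+ CD117+ CD34+ FLT3+ cells and CD115- CDPs as Lin- CD11c- FLT3+ CD117int CD115- CD127- cells. The series also holds common lymphoid progenitors (CLPs) and Trim33-/- libraries of the 3 populations; of these only the 3 wild-type CLP libraries were used here, as a further point of reference. The labels call the libraries biological repeats, and do not say how many animals went into each. The tables, the cell populations and any difference in library preparation cannot be told apart.

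Dendritic cells (DCs) arise in the bone marrow from progenitors that express the receptor FLT3. As MPPs commit, they lose stem cell regulators and receptors such as KIT, and gain the transcription factor IRF8, on which conventional type 1 DCs (cDC1s) depend. The CD115- fraction of CDPs is known as a source of plasmacytoid DCs (pDCs), which sense nucleic acids through endosomal Toll-like receptors and depend on the E protein TCF4.

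Promoters of 4 genes are shown, chosen as examples that hold a motif from groups that the results turn on: Siglech and Tlr9, genes of pDCs that were higher in CD115- CDPs, and Isg15 and Ifit1, interferon-stimulated genes that were lower. Each is the 250 bases before the transcript start that the RefSeq promoter table lists for the gene, build GRCm38.p6, with capitals marking matches on either strand to CAGGTG, a site bound by E proteins, or to GAAANNGAA, the core of the element bound by interferon regulatory factors (IRFs); matches in Isg15 and in Ifit1 overlap one another. For Siglech the RefSeq gene begins upstream of the listed start, at position 55768154, so that the end of the window and its match lie inside the gene.
Siglech, chr7:55767934-55768183, plus strand: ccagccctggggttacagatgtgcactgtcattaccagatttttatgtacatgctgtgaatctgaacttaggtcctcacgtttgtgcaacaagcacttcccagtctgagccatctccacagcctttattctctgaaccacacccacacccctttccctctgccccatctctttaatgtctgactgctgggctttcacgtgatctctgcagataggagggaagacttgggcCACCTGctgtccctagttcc
Tlr9, chr9:106222348-106222597, plus strand: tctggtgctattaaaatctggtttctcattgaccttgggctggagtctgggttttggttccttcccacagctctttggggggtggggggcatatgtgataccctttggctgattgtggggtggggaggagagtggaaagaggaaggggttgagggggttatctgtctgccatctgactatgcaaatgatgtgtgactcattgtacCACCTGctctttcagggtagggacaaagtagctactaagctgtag
Isg15, chr4:156200819-156201068, minus strand: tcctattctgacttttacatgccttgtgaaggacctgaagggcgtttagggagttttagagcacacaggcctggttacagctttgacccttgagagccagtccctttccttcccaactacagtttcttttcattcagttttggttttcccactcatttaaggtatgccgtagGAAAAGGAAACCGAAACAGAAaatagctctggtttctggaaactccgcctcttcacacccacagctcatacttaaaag
Ifit1, chr19:34640639-34640888, plus strand: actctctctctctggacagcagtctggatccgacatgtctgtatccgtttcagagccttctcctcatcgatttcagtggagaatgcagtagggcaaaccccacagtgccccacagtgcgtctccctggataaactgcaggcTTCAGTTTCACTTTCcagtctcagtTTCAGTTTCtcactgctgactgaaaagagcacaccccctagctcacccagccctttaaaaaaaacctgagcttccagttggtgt
Not all members held a match: CAGGTG was present in 6 of the 15 listed promoters of tested pDC genes and GAAANNGAA in 8 of the 15 of interferon-stimulated genes, and Irf8 and Spib held neither. For genes with several listed promoters, such as Irf8 with 2, only the first was searched. Of the tested genes, 9832 had such a promoter. CAGGTG was present in 14.8% of these, in 22.3% of the 166 promoters of genes called higher in CD115- CDPs and in 17.7% of the 389 of genes called lower. GAAANNGAA was present in 6.48% of all, in 7.23% of those called higher and in 12.3% of those called lower. Of 3 other motifs searched, GAGGAAGT, bound by PU.1 and SPIB, was present in 2.77% of all, 4.82% of those called higher and 3.34% of those called lower. GGAANNGAA, the ETS-IRF composite element, which can overlap the IRF motif, was present in 6.14%, 3.61% and 5.91%, and AGATAAG, bound by GATA factors, in 1.62%, 3.01% and 2.31%. These shares were not tested, describe letters in the window and do not show binding.

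Expression was deposited as FPKM, fragments counted per length of the transcript and per size of the library. Values below are scaled FPKM, each library divided by a size factor so that the median gene matches across the 6 libraries, and are given in the order of replicates 1, 2 and 3. The spacing of low values placed the depth between 19300000 and 21100000 mapped reads per library, and between 11102 and 11581 genes reached 1 FPKM. The 3 MPP libraries resembled each other closely (Pearson r across the tested genes between 0.989 and 0.994, which describes the libraries, since genes are not independent). CD115- CDP replicates 1 and 2 correlated at 0.985, but replicate 3 correlated with them at 0.940 and 0.910 and with the MPP libraries at 0.944 to 0.945. Replicate 3 thus lay apart from the others of its group, and list counts are given with and without it.

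Among 12502 genes tested with limma, 228 were called higher in CD115- CDPs (1.82%) and 501 lower (4.01%). A call needed a change of at least 1 on the log2(scaled FPKM + 1) scale and a Benjamini-Hochberg adjusted p no larger than 0.05. Without CD115- CDP replicate 3, 860 genes were called higher (6.88%) and 767 lower (6.14%). Of the genes called higher without it, 205 were also called with it, against 462 of those called lower. In replicate 3 itself, 84.5% of the 767 lower genes lay below all MPP values, while 42.1% of the 860 higher genes lay above all MPP values. Of the 860, 256 lay within the MPP range in replicate 3 and 242 lay below all MPP values. Of the 767, 38 lay within that range and 81 above it. Leaving out MPP replicate 1, 2 or 3, or CDP replicate 1, lowered the number called higher to 117, 119, 115 and 151. The median log2 fold change over all tested genes was 0.01.

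**Figure D1:**
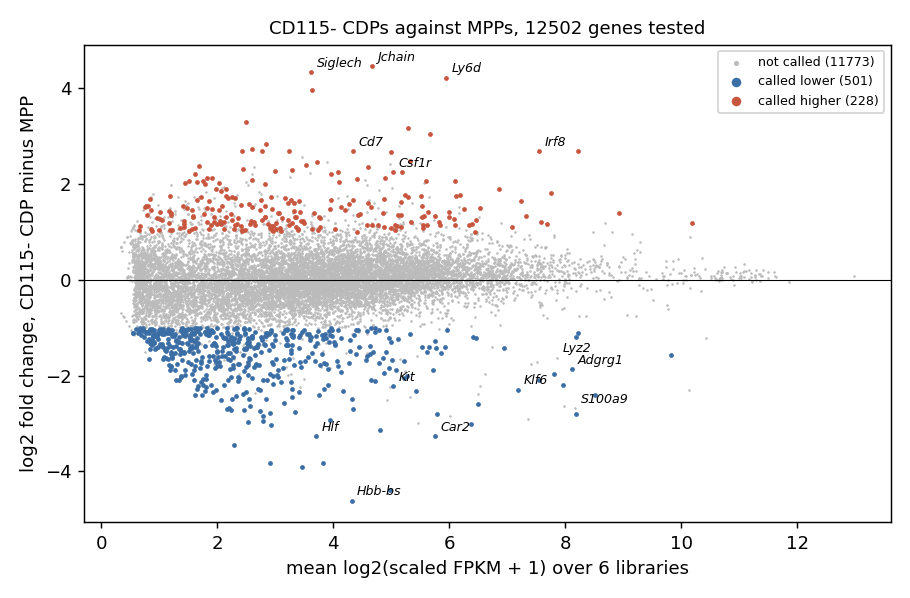
Log2 fold change of CD115- CDPs over MPPs (vertical axis) against mean log2(scaled FPKM + 1) over the 6 libraries (horizontal axis), 1 point per tested gene. Red points are the 228 genes called higher and blue points the 501 called lower; several abundant myeloid genes, such as S100a9, lie low without being called.

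The transcripts of the sort markers followed the gates in part. Kit (chromosome 5, 75574987 to 75656722, GRCm38.p6), which encodes CD117, was 69.4, 71.9 and 67.5 scaled FPKM in MPPs and 8.43, 17.1 and 19.1 in CD115- CDPs, 4.67-fold lower on average (log2 fold change -2.23 ± 0.29 (SE), adjusted p = 0.0055). Cd34 fell from 436, 424 and 468 to 173, 189 and 216 (log2 fold change -1.20 ± 0.10 (SE), adjusted p = 0.0017). No CDP value of either gene reached the MPP range. Ly6a, which encodes Sca-1, was 57.4, 57.9 and 72 in MPPs and 13.9, 11.2 and 42.3 in CDPs; it did not pass the test (log2 fold change -1.66 ± 0.47 (SE), adjusted p = 0.063) but did with the replicate number as a block (adjusted p = 0.048) and without replicate 3 (log2 fold change -2.22). Flt3 was 256, 255 and 256 in MPPs and 250.3, 259 and 144 in CDPs and was not called (log2 fold change -0.28 ± 0.23 (SE), adjusted p = 0.42).

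Csf1r encodes CD115, the protein whose absence defined the CDP gate. Its transcript was 15.1, 14.9 and 12.5 in MPPs and 59.5, 43.5 and 134 in CD115- CDPs, 5.59-fold higher on average (log2 fold change 2.24 ± 0.40 (SE), adjusted p = 0.016). All CDP values were above all MPP values, and replicate 3 was the highest; over replicates 1 and 2 alone the mean was 51.5, against 14.2 in MPPs. The call of Csf1r was lost with any 1 MPP library or CDP replicate 1 left out (adjusted p = 0.056 to 0.08). Itgax, which encodes CD11c, also absent from the gate, was 3.62, 3.33 and 3.28 in MPPs and 24.3, 17.5 and 20.5 in CDPs (log2 fold change 2.29 ± 0.14 (SE), adjusted p = 8.7e-04). Il7r, which encodes CD127, was 5.1, 5.29 and 5.53 and 21.5, 15.5 and 5.24, with replicate 3 inside the MPP range, and was not called (log2 fold change 1.07 ± 0.46 (SE), adjusted p = 0.16), but was without replicate 3 (log2 fold change 1.61).

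The lineage markers Cd2, Cd3e and Cd8a stayed below 3 scaled FPKM in every library, and none of the 6 lineage gate genes was called, whereas Ly6g was called lower without CDP replicate 3. Ly6g, a neutrophil surface marker of the lineage cocktail, was 9.15, 8.91 and 9.97 in MPPs and 0.25, 0.356 and 9.74 in CDPs. It was thus near 0 in CDP replicates 1 and 2, and as high in CDP replicate 3 as in the MPP libraries.

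Genes of stem cells and MPPs were lower in CD115- CDPs almost throughout. Of 23 tested genes in this list, 21 were called lower and 0 higher, with a median log2 fold change of -1.74; without replicate 3 the count was again 21. Hlf, a transcription factor of stem cells, fell from 40.6, 39.6 and 38.7 to 2.3, 4.54 and 3.14 (log2 fold change -3.26 ± 0.20 (SE), adjusted p = 8.7e-04). Replicate 3 did not stand apart on this gene. Angpt1, a secreted ligand of the receptor TIE2, fell 7.23-fold, from 51.1, 50.3 and 50.1 to 5.87, 7.42 and 7.65 (log2 fold change -2.70). The abundant adhesion receptor gene Adgrg1 fell from 555, 532 and 509 to 153, 177 and 113 (log2 fold change -1.87). Lmo2 and Gata2, which encode partners in a transcription complex of early progenitors, had log2 fold changes of -2.08 and -2.20. The 2 tested members that were not called, Msi2 and Cdkn1c, had log2 fold changes of -1.14 and -0.80.

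Erythroid and megakaryocyte genes were lower as well. In the erythroid list 12 of 14 tested genes were called lower and 1 higher (median -2.37), the same counts as without replicate 3. The globin gene Hbb-bs was 98.4, 107 and 87.8 in MPPs and 1.33, 1.36 and 11 in CDPs (log2 fold change -4.61 ± 0.64 (SE), adjusted p = 0.0072), with a log2 fold change of -5.39 without replicate 3. Car2, a carbonic anhydrase, was 161, 158 and 181 and 11.7, 22 and 17.1 (log2 fold change -3.26 ± 0.22 (SE), adjusted p = 8.7e-04). The erythroid regulators Gata1 and Klf1 were lower too, with log2 fold changes of -1.40 and -1.75. Tfrc, the transferrin receptor, went the other way, from 19.6, 20.4 and 18.5 to 82.2, 67.2 and 57.7 (log2 fold change 1.76 ± 0.14 (SE), adjusted p = 0.0014). Among 4 tested megakaryocyte genes, 3 were called lower, Pf4 and Gp9 with log2 fold changes of -2.40 and -1.96, and all 4 without replicate 3. In bulk RNA, fewer cells of a type and less RNA per cell cannot be told apart, and globin RNA can come from cells outside the gate; its part in the result was not tested.

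Some DC transcription factors were higher in CD115- CDPs. Of 27 tested, 7 were called higher and 1 lower, with a median of 0.51; without replicate 3, 10 were called higher, with Irf4, Relb and Zbtb46 added, and 2 lower, with Irf7 added. With the replicate number as a block 9 were called higher, with Irf4 and Zbtb46 added. Irf8 (chromosome 8, 120736358 to 120756694, GRCm38.p6) was 76.8, 70.8 and 72.7 in MPPs and 497, 262 and 816 in CDPs, 7.15-fold higher on average (log2 fold change 2.68 ± 0.39 (SE), adjusted p = 0.008). The CDP values did not overlap those of MPPs but spread widely, with replicate 3 the highest. Mycl, a MYC family member expressed in DCs, was 1.16, 1.17 and 1.03 and 12.9, 10.9 and 14 (log2 fold change 2.68 ± 0.13 (SE), adjusted p = 6.4e-04). Spib, an ETS factor of pDCs, was 1.72, 1.2 and 1.18 and 19.8, 13.2 and 11.8 (log2 fold change 2.73 ± 0.21 (SE), adjusted p = 0.0012). For both genes the CDP libraries lay close together. Id2, an inhibitor of E proteins, was 8.61, 10.2 and 9.02 and 37.2, 70.3 and 30.7 (log2 fold change 2.11 ± 0.30 (SE), adjusted p = 0.0076), and Nfil3, a factor needed for cDC1s, was 13.8, 15.2 and 11.2 and 61.4, 102 and 36.9 (log2 fold change 2.13 ± 0.36 (SE), adjusted p = 0.013). Runx2 and Ikzf3 were the other members called higher (log2 fold changes 1.34 and 1.24). Gfi1, a repressor in neutrophil and lymphoid development, was called lower (-1.53). The calls of Nfil3 and Ikzf3 were lost with any 1 MPP library left out (adjusted p = 0.055 to 0.071 and 0.055 to 0.06), and that of Nfil3 also without CDP replicate 1 (0.06).

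Several factors with known roles in DCs were not called. Tcf4 was 17.7, 18.6 and 17.8 in MPPs and 35.2, 33.4 and 20.8 in CDPs (log2 fold change 0.66 ± 0.20 (SE), adjusted p = 0.079). Spi1, which encodes PU.1, was 133, 133 and 132 and 145, 196 and 241 (log2 fold change 0.51 ± 0.18 (SE), adjusted p = 0.11). All 3 CDP values of each gene were above all MPP values, though those of Tcf4 in replicate 3 by little. Irf4 was 2.35, 2.54 and 0.885 and 15.3, 31.1 and 3.21, and did not pass the test over the 6 libraries (log2 fold change 2.21 ± 0.74 (SE), adjusted p = 0.095). It passed without replicate 3 (log2 fold change 3.02) and with the replicate number as a block (adjusted p = 0.044). Batf3, the partner factor of IRF8 in cDC1s, was low in MPPs (0.281, 0.413 and 0.603) and higher in CDP replicate 3 than in the other CDP libraries (1.62, 0.757 and 5.92).

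Of 20 tested pDC genes, 8 were called higher in CD115- CDPs and 1 lower, with a median of 1.11; without replicate 3 the counts were 9 and 1. Siglech, a pDC surface lectin and one of the promoters shown above, was 1.98, 1.53 and 1.77 in MPPs and 83.8, 63.2 and 29.9 in CDPs, 33.5-fold higher (log2 fold change 4.33 ± 0.37 (SE), adjusted p = 0.0015). Ly6d was 14.1, 12 and 14 and 415, 387 and 116 (log2 fold change 4.22 ± 0.49 (SE), adjusted p = 0.004). Cox6a2, a mitochondrial subunit expressed in pDCs, was 16.7, 16 and 17.3 and 223, 198 and 68.4 (log2 fold change 3.05 ± 0.44 (SE), adjusted p = 0.0079). On these 3 genes replicate 3 was the lowest CDP library, yet above every MPP value; without it the log2 fold change of Ly6d was 4.81. Cd300c, an activating receptor gene, was 1.21, 0.433 and 0.829 and 18.8, 12.4 and 19.6 (log2 fold change 3.29 ± 0.24 (SE), adjusted p = 0.001), without such a gap. Bst2, Atp1b1 and Pacsin1 had log2 fold changes of 1.33, 1.65 and 1.33; the call of Pacsin1 was lost with any 1 MPP library or CDP replicate 2 left out (adjusted p = 0.057 to 0.097). Lag3 was the member called lower (-1.37). Ccr9, a chemokine receptor of mature pDCs, was 2.22, 2.46 and 2.32 and 4.82, 5.89 and 2.09 and was not called (log2 fold change 0.58 ± 0.30 (SE), adjusted p = 0.22).

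Beside wild-type CLPs, the 9 libraries gave 121 of 12518 tested genes called higher in CD115- CDPs (0.967%) and 212 called lower (1.69%). Without CDP replicate 3 the counts were 646 and 364, and TPM gave 112 and 485. Siglech was 208, 142 and 147 in CLPs on the scale of the 9 libraries (CDP minus CLP log2 fold change -1.56, adjusted p = 0.025), and Spib was 115, 97.5 and 96.4 (log2 fold change -2.72, adjusted p = 2.7e-04). On both genes CD115- CDPs stood between MPPs and CLPs. Ly6d, at 697, 899 and 1175 in CLPs, and Cd300c were also called lower in CDPs than in CLPs (log2 fold changes -1.75 and -1.23). Among the other largest rises over MPPs, Cox6a2 (-1.24), Blk (-1.39), Epha2 (-0.92) and Tmem119 (-0.81) leaned the same way without being called. Jchain was called higher in CDPs than in CLPs (5.99), and Ly86 was not called (0.63). Irf8 was 1054, 1114 and 998 in CLPs and was not called (log2 fold change -1.14, adjusted p = 0.062). Csf1r was lower in CLPs, at 25.3, 23.9 and 14.6 (log2 fold change 1.74, adjusted p = 0.026), and so were Id2 (log2 fold change 1.55, adjusted p = 0.011) and Nfil3 (log2 fold change 2.45, adjusted p = 0.0035). These values share the CDP libraries with the comparison to MPPs.

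**Figure D2:**
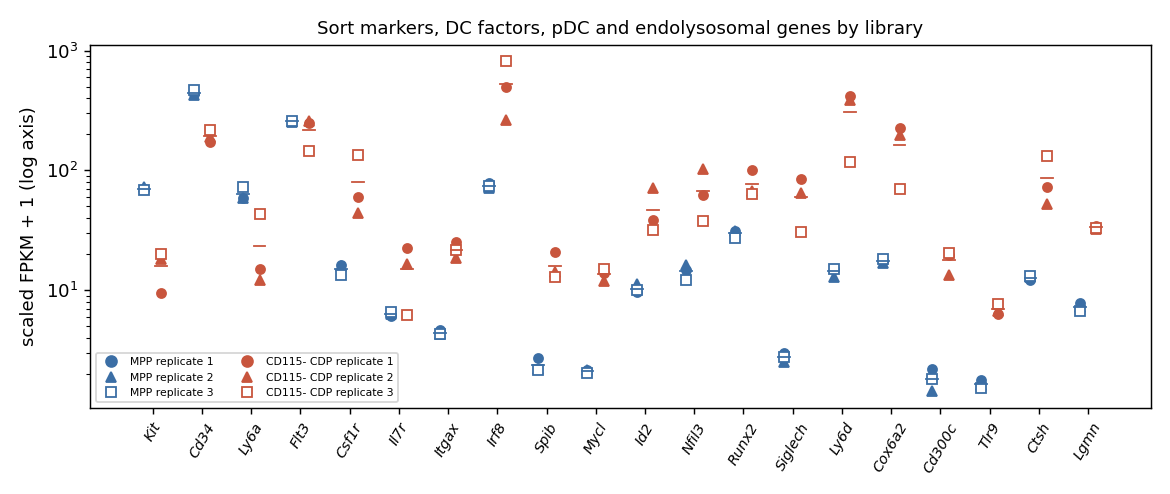
Scaled FPKM + 1 on a log axis for sort markers, DC transcription factors, pDC genes and endolysosomal genes, 1 symbol per library (MPPs blue, CD115- CDPs red, replicate 3 open squares, horizontal bars the means). CDP values of Siglech, Mycl, Tlr9 and Lgmn lie above all MPP values, and Il7r of CDP replicate 3 lies among the MPPs.

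Few markers of differentiated conventional DCs were called. Of the 16 cDC1 genes 9 were tested, 2 of these were called higher and 0 lower, and the median was 0.11; the counts were equal without replicate 3. Clec9a, a receptor for dead cells, was 0.261, 0.298 and 0.48 in MPPs and 3.43, 2.09 and 10.9 in CDPs (log2 fold change 2.03 ± 0.48 (SE), adjusted p = 0.039), and Rab7b had a log2 fold change of 1.63. The defining markers Xcr1, Cadm1 and Itgae were below 1 scaled FPKM in all 6 libraries. None of 9 tested cDC2 genes was called, and 1, Clec4a2, was called lower without replicate 3. In the MHC class II pathway 2 of 12 genes were called higher, Ctss (1.34) and H2-DMb2 (1.06), and without replicate 3 these were Ctss and Ifi30. Cd74, the invariant chain, was 98.3, 104 and 101 and 127, 149 and 254 (log2 fold change 0.73 ± 0.25 (SE), adjusted p = 0.1). The calls of Clec9a, Ctss and H2-DMb2 were lost with any 1 MPP library or CDP replicate 1 left out (adjusted p = 0.1 to 0.14, 0.072 to 0.11 and 0.069 to 0.11).

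Part of the endolysosomal genes were higher. Of 16 tested, 6 were called higher and 0 lower, with a median of 0.88. The number called higher was 7 without replicate 3 and 7 with the replicate number as a block. Lgmn, the protease legumain, was 6.78, 6.18 and 5.71 in MPPs and 33.6, 31.7 and 32.1 in CDPs (log2 fold change 2.21 ± 0.10 (SE), adjusted p = 5.8e-04). Ctsh, a cathepsin, was 11.2, 11.8 and 12 and 71.8, 51.8 and 131 (log2 fold change 2.66 ± 0.32 (SE), adjusted p = 0.0046). The CDP libraries were nearly equal on Lgmn, while replicate 3 was the highest on Ctsh. Ctsb and Psap had log2 fold changes of 1.48 and 1.39. Among Toll-like receptor genes and their partners 3 of 14 tested were called higher and 0 lower, and 4 were called higher without replicate 3. Tlr9, the endosomal receptor for DNA, was 0.784, 0.625 and 0.537 and 5.32, 5.72 and 6.74 (log2 fold change 2.07 ± 0.13 (SE), adjusted p = 8.7e-04). Unc93b1, which carries such receptors to endosomes, was 87.4, 79.8 and 85.9 and 254, 203 and 357 (log2 fold change 1.64 ± 0.20 (SE), adjusted p = 0.005). Tlr2 had a log2 fold change of 1.39, and Tlr7, the endosomal receptor for RNA, was 5.38, 5.84 and 6.29 and 5.63, 10.3 and 2.71 and was not called. The calls of Psap and Tlr2 were lost with any 1 MPP library or CDP replicate 1 left out (adjusted p = 0.078 to 0.1 and 0.073 to 0.086).

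Many interferon-stimulated genes were lower in CD115- CDPs, with 10 of 22 tested called lower, 1 called higher and a median of -0.99. Without replicate 3, 15 were called lower and 1 higher, the 5 added being Ifit2, Usp18, Irf7, Ifih1 and Zbp1. Rtp4 was 20, 19.2 and 22.8 in MPPs and 2.14, 2.41 and 3.47 in CDPs (log2 fold change -2.57 ± 0.17 (SE), adjusted p = 8.7e-04). Ddx58, which encodes the RNA sensor RIG-I, was 14.7, 14.7 and 14.5 and 2.71, 2.94 and 3.03 (log2 fold change -2.01 ± 0.10 (SE), adjusted p = 6.5e-04). No CDP library came near the MPP range on these genes. Isg15 and Ifit1, whose promoters are shown above, had log2 fold changes of -1.05 and -1.06, close to the threshold of 1. The call of Isg15 was lost with any 1 MPP library or CDP replicate 1 left out (adjusted p = 0.074 to 0.086), and without CDP replicate 2 its change was under 1. The member called higher was Bst2, which is also a pDC marker.

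Cytokine receptor genes were called in both directions, 3 higher and 3 lower of 23 tested, or 4 and 3 without replicate 3. Those called higher were Csf1r, Csf2rb2 (1.67), a receptor subunit for IL-3, and Il10ra (1.05). Without replicate 3 Il10ra fell short of the threshold of 1 and Il7r and Tgfbr1 were added. Those called lower included Kit and Csf3r, the receptor for G-CSF, which was 59.5, 58.8 and 56.7 in MPPs and 10.2, 12.6 and 28.7 in CDPs (log2 fold change -1.84 ± 0.36 (SE), adjusted p = 0.02). The call of Csf3r was lost with any 1 MPP library or CDP replicate 1 or 2 left out (adjusted p = 0.059 to 0.09). In the list of T, NK and innate lymphoid genes 3 of 12 were called higher and 1 lower, or 4 and 1 without replicate 3. Cd7 was 7.31, 6.71 and 7.14 and 58.8, 44.3 and 50 (log2 fold change 2.68 ± 0.13 (SE), adjusted p = 6.4e-04), and the T cell factor gene Tcf7 was 1.23, 1.47 and 0.951 and 7.36, 6.81 and 6.64 (log2 fold change 1.84 ± 0.13 (SE), adjusted p = 9.9e-04). Il2rb was the other gene called higher (1.58) and Nkg7 the gene called lower (-1.40).

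Of 7 tested basophil and mast cell genes 1 was called lower, Cpa3, and without replicate 3, 5 were called lower, with Mcpt8, Prss34, Ms4a2 and Hdc added, and 1 higher, Gzmb. None of 11 chemokine receptor genes was called, and Ccr7 and Cxcr4 were called higher without replicate 3. The call of Cpa3 was lost with the replicate number as a block. Of 32 cell cycle genes, Ccne1 alone was called, at a log2 fold change of 1.14, and the median of the list was 0.07; without replicate 3, Cdkn1a was called higher as well. Mki67, a marker of proliferation, was 60.4, 59.8 and 49.8 in MPPs and 70.2, 55.8 and 72.7 in CDPs. In the BCL2 family, Bcl2 was the gene called, at 18.1, 16.3 and 14.4 and 41.3, 31.9 and 37.6 (log2 fold change 1.13 ± 0.14 (SE), adjusted p = 0.0047). Of 15 immediate early genes, 6 were called lower and 0 higher, and without replicate 3, 8 were called lower, with Fos and Zfp36 added, and 1 higher, Nr4a1. Klf6 was 343, 339.6 and 286 and 68.6, 62 and 64.3 (log2 fold change -2.29 ± 0.10 (SE), adjusted p = 5.8e-04), and Egr1 was 886, 787 and 649 and 168, 58.1 and 132 (log2 fold change -2.81 ± 0.39 (SE), adjusted p = 0.007).

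**Figure D3:**
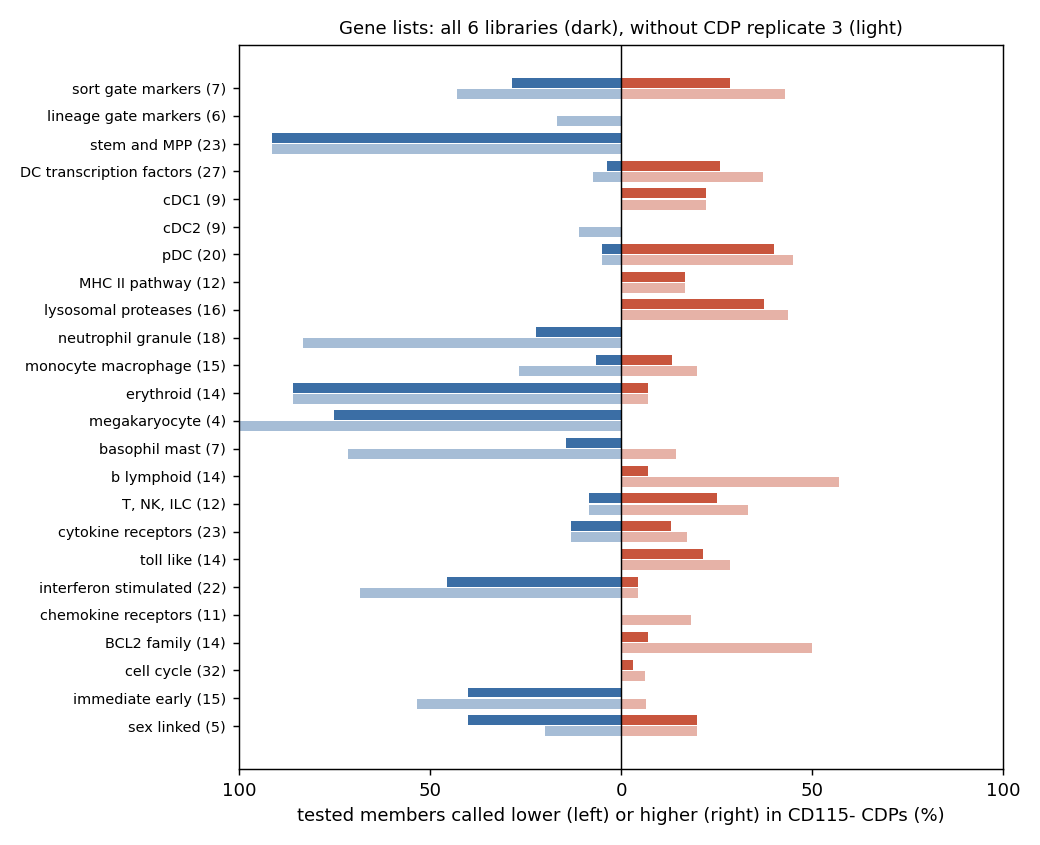
Share of tested members of each gene list called lower (blue, left) or higher (red, right) in CD115- CDPs, with the number tested in parentheses; dark bars use all 6 libraries and light bars leave out CDP replicate 3. The stem and MPP and erythroid lists keep their counts, whereas the neutrophil granule, B lymphoid and BCL2 family lists differ between the bars.

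The genes with the largest rises that had no overlap between groups included several outside these lists. Jchain, the joining chain of antibodies, which pDCs and their progenitors also express, was 3.34, 5.45 and 4.66 in MPPs and 55.7, 58.5 and 491 in CDPs (log2 fold change 4.45 ± 0.84 (SE), adjusted p = 0.019). Its value in replicate 3 was far above the others, and without that library the log2 fold change was 3.42; the call was lost with any 1 MPP library left out (adjusted p = 0.075 to 0.088). Epha2, an ephrin receptor, was 2.35, 2.75 and 1.49 and 88.5, 70.1 and 17.7 (log2 fold change 3.97 ± 0.59 (SE), adjusted p = 0.0089), and Ly86, a partner of the receptor CD180, was 10.9, 11.9 and 13.6 and 109.5, 82.2 and 178 (log2 fold change 3.17 ± 0.28 (SE), adjusted p = 0.0017). Epha2 had a log2 fold change of 4.66 without replicate 3, and its call was lost without MPP replicate 3 (adjusted p = 0.054). Tmem119 had a log2 fold change of 2.69. Blk, a kinase of the SRC family, was 1.69, 1.56 and 1.83 and 35.6, 28.5 and 5.55, lowest among CDPs in replicate 3, with a log2 fold change of 2.84, or 3.61 without replicate 3. With any 1 of the other libraries left out its call was lost (adjusted p = 0.084 to 0.12). Among the largest falls, 6 were erythroid genes and Hlf was a stem cell gene. Others were the transporter gene Slc16a11 (-3.03) and Chil3, a secreted chitinase-like protein of myeloid cells, which was 80, 87.8 and 78.7 and 2.51, 7.2 and 28.3 and highest among CDPs in replicate 3. Its log2 fold change was -3.14, or -3.95 without replicate 3, and the call was lost with any 1 of the other libraries left out (adjusted p = 0.07 to 0.13).

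Myeloid genes separated the CDP libraries from each other. Of 18 neutrophil granule genes, 4 were called lower with all libraries and 15 without replicate 3, and 0 were called higher in either case. With the replicate number as a block, 3 were called lower. The summed level of the list was 3679.5, 3757 and 3702 scaled FPKM in MPPs and 746, 881 and 4657 in CDPs. S100a9, a calcium-binding protein of neutrophils, was 692, 716 and 789.5 in MPPs and 28.9, 80.5 and 614 in CDPs, and Mpo, myeloperoxidase and the most abundant member in CDP replicate 3, was 695, 686 and 558 and 368, 346 and 1656. CDP replicates 1 and 2 were below the MPPs on both genes, and replicate 3 was near or above them.

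Among 15 tested monocyte and macrophage genes, 2 were called higher, Csf1r and Ms4a6c (2.06), and 1 lower, Csf3r. Without replicate 3, 3 were called higher, with F13a1 added, and 4 lower, with Lyz2, Fn1 and Fcgr3 added. Ms4a6c passed narrowly (adjusted p = 0.049 with limma). Its call was lost with the replicate number as a block (adjusted p = 0.057), with FPKM as deposited (0.068), TPM (0.061) or quantile normalization (0.066), with either other filter, without the trend, and with any 1 MPP library or CDP replicate 1 left out; without CDP replicate 3 the log2 fold change was 1.42. Lyz2, lysozyme, was 402, 409 and 415 in MPPs and 48, 55.7 and 834 in CDPs, with a log2 fold change of -2.96 without replicate 3 that was called and of -1.63 with it that was not. Ccr2, a receptor that guides monocytes, was 4.84, 2.97 and 68.2 in CDPs, and Fn1, fibronectin, 1.49, 0.857 and 56. Replicate 3 was the high library on all of these.

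Several B lymphoid genes were lowest in replicate 3 among the CDP libraries. Of 14 B lymphoid genes, 1 was called higher with all libraries, Cd22 (2.37), and 8 without replicate 3. Cd22 itself was highest in replicate 3, at 6.54, 3.52 and 10.5. Ebf1, a factor of early B cells, was 0.968, 1.08 and 0.97 in MPPs and 4.96, 8.95 and 0.216 in CDPs, and Blnk, an adaptor of the B cell receptor, was 10.5, 10.6 and 10 and 79.6, 87.2 and 14.7. Nr4a1, a nuclear receptor induced by stimulation, was 848, 796 and 485 in MPPs and 1947, 1701 and 68.5 in CDPs, and Cd83, a surface marker of activated cells, was 5.12, 13.1 and 1.03 and 31.9, 82.4 and 0.884. On Nr4a1 and Cd83, CDP replicates 1 and 2 were above all MPP libraries and replicate 3 was below all of them. MPP replicate 3 was likewise the lowest MPP library on both genes, and on Nr4a3, Rasgef1b, Lmna and Il10. The pro-apoptotic Bcl2l11, in the BCL2 family, was 13.6, 21.4 and 8.53 and 62.1, 104 and 8.07, and 7 genes of that family were called higher without replicate 3 against 1 with it and 2 with the replicate number as a block.

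By the rule for replicate 3, its largest excess over the mean of replicates 1 and 2 was in Hspa1b, Fn1, Hspa1a, Retnlg and Tgfbi, and its largest deficit in Rasgef1b, Nr4a3, Lmna, Cd83 and Il10. Hspa1a, a heat shock chaperone, was 214, 195 and 184 in MPPs and 18.7, 9.66 and 373 in CDPs. Il10, a cytokine, was 7.14, 6.73 and 2.51 and 34.6, 33.1 and 0.265. Reads of Hspa1a and Hspa1b, as of the paired globin genes, can be shared between near-identical copies. Replicate 3 was higher than replicates 1 and 2 by at least 1 on the log2 scale for 638 tested genes and lower for 1061. With FPKM as deposited these counts were 813 and 854, and with TPM 896 and 1097, so their balance depended on the scaling.

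**Figure D4:**
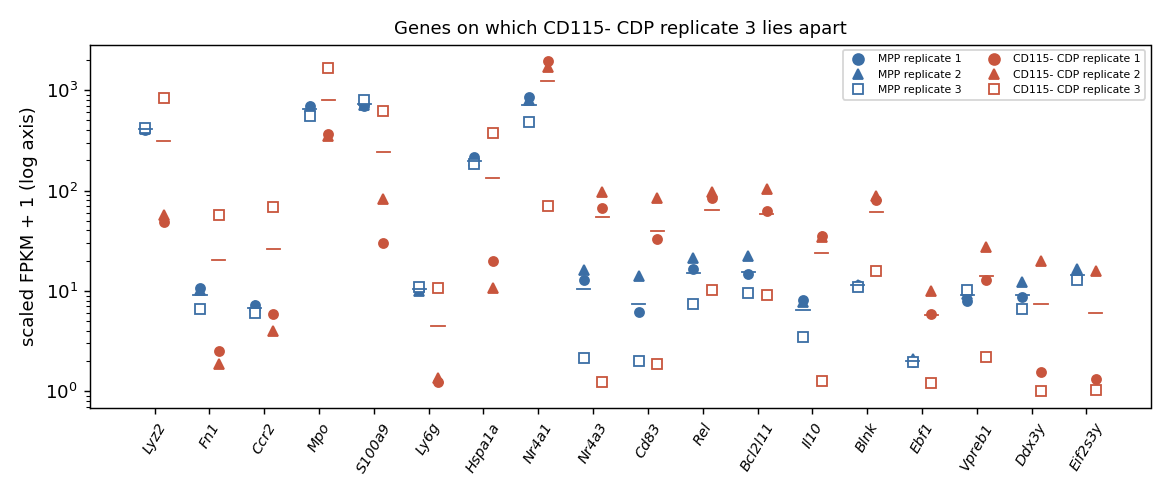
Scaled FPKM + 1 on a log axis for genes on which CD115- CDP replicate 3 (open red square) lies apart from replicates 1 and 2 (filled red symbols), with MPPs in blue and bars for the means. Replicate 3 is high for Lyz2, Fn1, Ccr2 and Hspa1a and low for Nr4a3, Cd83 and Ebf1; Y-linked Ddx3y and Eif2s3y are near 0 in CDP replicates 1 and 3.

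The libraries also differed in transcripts of the sex chromosomes. The Y-linked gene Eif2s3y was 12.5, 15.6 and 11.9 in MPPs and 0.313, 14.6 and 0.0295 in CDPs, and Xist, transcribed from the inactive X chromosome, was 21.9, 18.7 and 21.7 and 86.7, 43.3 and 42.5 (log2 fold change 1.35 ± 0.28 (SE), adjusted p = 0.027), a call lost with any 1 MPP library left out (adjusted p = 0.1 to 0.11). All MPP libraries and CDP replicate 2 carried both, and CDP replicates 1 and 3 carried Xist with Y-linked transcripts near 0. The part of sex in the other results was not tested.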

How the data were processed

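The authors sequenced poly-A RNA of sorted cells as single-end reads of 50 bases on the BGISEQ-500. The submitters' processing notes name HISAT2 2.0.4, Bowtie2 2.2.5 and RSEM 1.2.12 and build mm10. The deposited values are FPKM per gene, in a table for each population; counts were not used here.

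The FPKM of the 6 libraries were divided by median-ratio size factors over 10276 genes above 1 FPKM in all of them. Genes with a mean of at least 0.5 scaled FPKM were tested on log2(scaled FPKM + 1) with limma 3.58.1 (lmFit, eBayes with trend) in R 4.3.3 and Benjamini-Hochberg adjustment. CLPs entered a fit of 9 libraries with factors recomputed. The number of libraries limits the precision, and p-values measure the spread between these libraries. The fit was tested on simulated data of 12502 genes, drawn independently around each gene's mean with its spread within groups. Changed genes were taken from those with a mean above 2 on the log2(scaled FPKM + 1) scale. A shift of many genes together in 1 library, as in CDP replicate 3, was not simulated. With the 6 libraries it recovered 86% of those changed by 2 on the log2 scale and 55% of those changed by 1. False calls numbered 4. Without CDP replicate 3 the shares were 96% and 67%, with 11 false calls. These shares and false calls counted the adjusted p alone, without the change of at least 1 that a call also needs.

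Depth was estimated from the step between low FPKM values of genes with 1 transcript. Symbols altered to dates by a spreadsheet (26) were not named. Genes were named by a rule: the sort and lineage gate markers, the 10 largest rises and 10 largest falls without overlap, the called members of gene lists with their defining markers, and the 5 genes on either side on which CDP replicate 3 departed most. The comparison and the lists were chosen with earlier results of these data known. Neither the labels nor the methods say whether equal replicate numbers share animals. Deviations from the group means correlated at 0.14, 0.38 and 0.36 between libraries with the same number, so the replicate number was also fitted as a block. The average of -0.14 between libraries with different numbers is no separate evidence, since deviations from a group mean cancel out within the group.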

Additional observations from a re-analysis of the deposited data

How the results depend on the processing

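CD115- CDP replicate 3 was the library with the most influence. Leaving out each library in turn gave between 115 and 860 genes called higher and between 364 and 767 called lower against MPPs, the top of both ranges being without CDP replicate 3. Against CLPs the ranges over the CDP libraries were 91 to 646 higher and 180 to 364 lower. Over the fixed gene lists, 39 members were called higher with all libraries and 27 to 65 with 1 left out. With the replicate number as a block, 246 and 493 genes were called higher and lower against MPPs and 110 and 198 against CLPs; the block changed the calls of Ly6a, Irf4 and Ms4a6c among the 79 genes given with a fold change. The block without CDP replicate 3, added after the values were seen, gave 794 higher and 772 lower, and 64 list members higher. A mean of at least 5 scaled FPKM left fewer genes to test and gave 139 higher and 232 lower. TPM gave 762 lower against MPPs and 485 against CLPs, and a pseudocount of 0.1 gave 757 lower; the cause was not tested. With FPKM as deposited the median of all genes shifted to -0.10. Array weights did not converge and put a weight of 156.2 on CDP replicate 1, so their 686 genes called higher bear on no result. None of the 79 genes changed direction under any alternative. Il10ra and H2-DMb2 were no longer called without CDP replicate 3, 12 genes without CDP replicate 1, 5 without CDP replicate 2, and 16 to 17 without an MPP library. FPKM as deposited lost 4 calls (Ctss, H2-DMb2, Il10ra and Ms4a6c), no filter 3 (Chil3, Clec9a and Ms4a6c), TPM 2 (Il10ra and Ms4a6c) and quantile normalization 2 (Ifit1 and Ms4a6c), while the stricter filter and the fit without a trend each lost Ms4a6c. Calls were gained for Ly6a, Il7r, Irf4 and Lyz2 without CDP replicate 3, for Msi2 without CDP replicate 2 and with FPKM as deposited, and for Cdkn1c with TPM and with the pseudocount of 0.1.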
